A study of Mus musculus with 9 samples.

Results

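The 7 genes described here encode proteins of chromosome segregation and cytokinesis: Hjurp, Cenpf, Cenpe, Racgap1, Ect2, Anln and Mki67. They were taken by name from the 22442 genes of the deposited count tables, of which 11718 carry a symbol, and all 7 were found and passed the filter on low counts. The list was chosen by counts and fold changes of an earlier analysis of these same libraries. The mRNAs bound by FLAG-tagged Chtop were profiled by iCLIP (ultraviolet crosslinking of cells, pulldown of the protein with its RNA and sequencing of that RNA) in N2a Flp-In rtTA cells, a mouse neuroblastoma line. One group of 3 libraries came from cells expressing FLAG-Chtop with exon 5 and another group of 3 from cells expressing FLAG-Chtop without exon 5. The 3 size-matched inputs were lysate RNA from a matching gel region with no pulldown, and came from 3 lines: input 1 from the line without exon 5, input 2 from the line with exon 5 and input 3 from a FLAG-GFP line. In all groups the cDNA was induced with 2 µg/mL doxycycline for 24 hours and cells were crosslinked at 254 nm with 0.15 J/cm2. The bound protein was thus a tagged, induced cDNA product, recovered through its tag. The study asked how the presence of exon 5 changes the RNA partners of Chtop.

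Chtop is a chromatin-associated RNA-binding protein that works with the TREX complex, which couples the processing of mRNA to its export from the nucleus. At mitosis, a specialised chromatin at the centromere carries the kinetochore, which attaches chromosomes to spindle microtubules. After the chromosomes separate, the central spindle between them positions and drives the contractile ring that divides the cell. The mRNAs for these proteins are abundant in cycling cells such as a tumour line.

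Isoform libraries totalled 624062 to 1844970 counts, and inputs 75504 to 173342. In CPM, the count of a gene over its library's TMM-adjusted size, 3 counts were worth 2.10 to 5.51 in an isoform library and 16.3 to 21.1 in an input. The inputs were therefore the less precise side of every comparison with them. Across genes, log2 CPM correlated at 0.705 to 0.823 between isoform libraries and at 0.279 to 0.377 between inputs. All 11 named neuroblastoma and sympathetic neuron markers of 17 listed had counts in the isoform libraries, where they summed to 1088 to 1851 CPM per library. Most of these counts were of Alk (2658), Hand2 (2127) and Gata2 (1325), while Dbh had 8 and Nefl 3. In the inputs 9 of the 11 had counts, with sums of 557 to 1972 CPM. Of 14 listed markers of other cell types, 7 are named in the files and 4 had counts in the isoform libraries, with sums of 9.79 to 43.5 CPM. Their sums in the inputs were 0 to 77.5 CPM. In such pulled-down RNA, more bound mRNA and more mRNA in the cell cannot be told apart without the input, and input counts of these genes were low.

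Racgap1 and Hjurp had the highest levels per length of the 7 genes with either isoform. The Hjurp libraries of the 2 isoforms did not overlap, a difference that did not pass the test. Racgap1 had the highest CDS count density (CPM per kb of coding sequence) of the 6376 genes measured there in both isoforms. Against input, Racgap1, Hjurp and Cenpf were past the threshold (adjusted p under 0.05 by edgeR's quasi-likelihood test over all 8342 genes tested) with either isoform. Cenpe, Ect2, Anln and Mki67 were not. The members were chosen with results of these comparisons known, so their values against input are a description. Of all genes tested, 9.17% passed with exon 5 and 8.7% without, and the share past it upwards was 8.31% and 8.12%. Isoform against isoform, 0 of the 7 and 0 of all 8342 genes (0%) passed. At an unadjusted p under 0.05 there were 93 genes, and 1 gene was called by DESeq2. Each gene had 1 estimate of the spread over all 9 libraries, so intervals between the isoforms also carry the spread of the inputs. Fitted by edgeR without the inputs, 625 of 7931 genes had an unadjusted p under 0.05, and 2 were called.

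**Figure D1:**
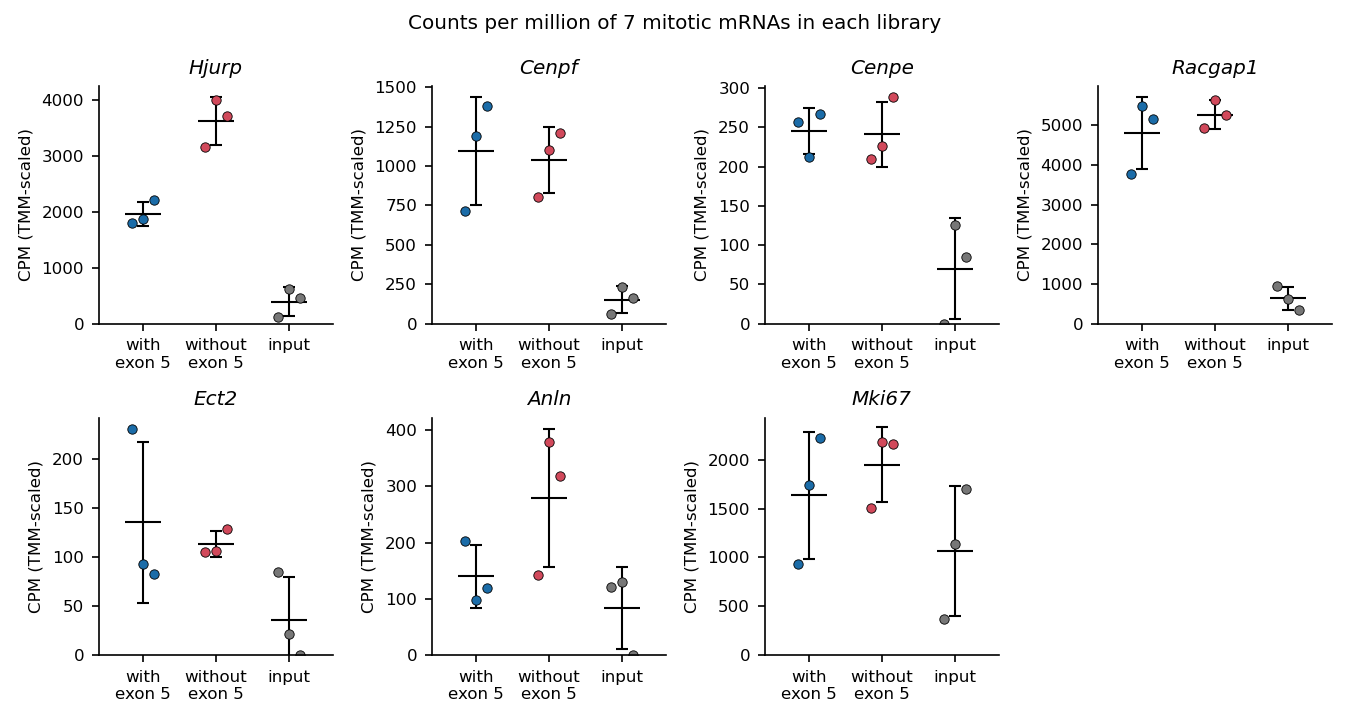
CPM scaled with TMM factors (linear axis from 0) of each gene in each of the 9 libraries, with points for libraries in the order of replicate number and bars for mean ± SD (n = 3). The 6 isoform libraries of Racgap1 lie between 3779 and 5642 CPM against 352 to 937 CPM in the inputs, and the Hjurp libraries without exon 5 all lie above those with it.

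Hjurp encodes the chaperone that deposits the centromeric histone Cenpa, and so renews the mark that defines the centromere. In the files' annotation it has a CDS of 2015 bases and a 3' UTR of 2877 bases (ENSMUSG00000044783.16; chromosome 1, 88258856 to 88277644 in GRCm38). Its gene total was 1801, 1876 and 2210 CPM in the libraries with exon 5, from 1261, 1315 and 2361 counts. Without exon 5 it was 3155, 4005 and 3719 CPM, from 1717, 3406 and 5316 counts. In the inputs it was 114, 616 and 451 CPM, from 19, 113 and 64 counts. All 3 groups were apart, with the inputs lowest and the isoform without exon 5 highest. Every isoform library lay above every input for 28% of all genes tested. The log2 fold change over input was 2.32 (SE 0.51) with exon 5 and 3.20 (SE 0.53) without, against medians over all genes of 1.03 in both comparisons. Without any 1 of the 3 libraries with exon 5, the former was 2.31 to 2.41 and no longer past the threshold, with adjusted p of 0.0512 to 0.0600 by edgeR. It was 1.57 by library size alone (adjusted p = 0.0560), and with only the groups compared the values were 2.13 and 2.94 (adjusted p of 0.119 and 0.0843), none past the threshold.

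Between the isoforms, the Hjurp mean was 1962 ± 218 CPM (SD, n = 3) with exon 5 and 3627 ± 432 CPM (SD, n = 3) in its absence. The log2 difference, with minus without exon 5, was −0.89 (SE 0.49, 95% interval −1.92 to 0.15) and its adjusted p by edgeR was 1.00 over all genes. The difference kept its sign in all 16 alternative settings tried, from −0.999 to −0.82, and passed in 0 of them, with the lowest adjusted p at 0.214 when the inputs were left out of the fit. Groups that do not overlap in this direction were found for 7.43% of all genes tested, and for 6.49% in the other direction. So the gap between the groups was larger than the spread within them, yet gaps of this kind were common over all genes and the difference was not a call.

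The gap was present in both parts of the Hjurp transcript. Its CDS density was 415, 435 and 634 CPM per kb with exon 5 and 769, 923 and 975 CPM per kb without. Its 3' UTR density was 336, 347 and 324 CPM per kb with exon 5 and 558, 746 and 610 CPM per kb without. In each part (7.2% of all CDS and 6.32% of all 3' UTRs did so) the highest library with exon 5 was below the lowest library without it. The fitted log2 differences were −0.83 (SE 0.99) in the CDS and −1.081 (SE 0.73) in the 3' UTR, with adjusted p of 1.00 and 0.999 by edgeR. These parts were read in the same libraries and share the libraries' scaling. In the authors' deposited table, which compares the isoforms per gene part, the Hjurp log2 fold change was −0.81 in the CDS and −0.93 in the 3' UTR, and both parts carried the class BOTH. The label of that class names a log2 fold change of 1.0 and the same direction in all replicates, and no p. BOTH is therefore not a finding of no difference.

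The Hjurp inputs differed among themselves in where the counts fell. In the isoform libraries 46.4% to 57.8% of its CDS and 3' UTR counts lay in the CDS, with means of 50.3% ± 6.49 with exon 5 and 49.4% ± 3.22 without (SD, n = 3 each). By length alone the CDS makes up 41.2% of the 2 parts. Inputs 1 and 2 had 73.7% (14 of 19 counts) and 84.1% (95 of 113) in the CDS, with exact 95% intervals of 48.8% to 90.9% and 76.0% to 90.3%. Input 3, from the FLAG-GFP line, had 0 of 64 counts in the CDS, which allows a share of up to 4.69% by the 3-count floor and up to 5.60% by the exact 95% interval. The inputs thus lay on both sides of the isoform libraries. Against input, the CDS changed relative to the 3' UTR by −0.29 on the log2 scale (adjusted p = 0.984 by edgeR's diffSpliceDGE, both isoforms together). With 1 library left out this value ran from −2.24 to 2.38, the latter without input 2. In the fit of all libraries 8 of 4037 genes (0.198%) passed that test. Between the isoforms that relative change was 0.08 (adjusted p = 1.00), with 0 genes past the threshold and 52 at an unadjusted p under 0.05.

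Against input, both isoforms together, the Hjurp 3' UTR was higher by 3.52 (SE 0.76) on the log2 scale and past the threshold, and in all 16 alternative settings too. Of all 3' UTRs tested, 15.9% were called, and their median was 1.34. The Hjurp CDS stood at 2.49 (SE 0.98), not past it (19% of CDS called, median 1.54). Here and for the genes below, each part was scaled by its own library sizes. Fold changes of the CDS and the 3' UTR are therefore not on a shared scale. Without input 2 the CDS value was 4.99, past the threshold. Without input 3 it was 1.96 and with no filter on low counts 2.73, also past it.

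Cenpf and Cenpe are large coiled-coil proteins of the outer kinetochore corona, Cenpe being a kinesin motor that carries chromosomes to the spindle equator. Cenpf has a CDS of 9093 bases and a 3' UTR entry of 143 bases (ENSMUSG00000026605.14; chromosome 1, 189640606 to 189688107). Its total was 714, 1190 and 1380 CPM with exon 5, 803, 1098 and 1210 CPM without, and 60.1, 234 and 162 CPM in the inputs, the last from 10, 43 and 23 counts. Every isoform library lay above every input, as for 28% of all genes, and the isoform groups overlapped. The log2 fold change over input was 2.84 (SE 0.61) and 2.77 (SE 0.61), and the log2 difference between the isoforms was 0.08 (SE 0.56, 95% interval −1.12 to 1.27, adjusted p = 1.00 by edgeR). Cenpf was no longer past the threshold with exon 5 when replicate 2 or 3 of that group was left out (2.81 and 2.73), nor without exon 5 when replicate 2 or 3 of its group was (2.77 and 2.68). It was also not past it without exon 5 by library size alone (2.00), nor in either comparison with only the groups compared (2.66 and 2.50). Its CDS, both isoforms together, was at 2.63 (SE 0.63) over input and past the threshold, and at 1.80 with RLE size factors and 1.51 by library size alone not past it, nor without replicate 2 or 3 of either isoform.

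Cenpe has a CDS of 7413 bases and no 3' UTR length in the files (ENSMUSG00000045328.11; chromosome 3, 135212563 to 135273540). Its total was 257, 213 and 267 CPM with exon 5 and 210, 226 and 288 CPM without. The inputs had 0, 125 and 84.5 CPM from 0, 23 and 12 counts, where an absent gene in input 1 is only bounded by the 3-count floor. All isoform libraries lay above all inputs, yet the log2 fold changes of 1.81 (SE 1.06) and 1.78 (SE 1.05) did not pass the threshold. Groups that do not overlap, with the isoform higher, were found for 33.1% of genes with exon 5 and 35.9% without. The isoforms differed by 0.02 (SE 1.00, 95% interval −2.10 to 2.15, adjusted p = 1.00 by edgeR), an interval that holds more than a 4-fold change in either direction. Its width includes the spread of the inputs, while the isoform libraries themselves ran from 210 to 288 CPM.

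Racgap1 and Ect2 act together at the central spindle. Racgap1 is the GTPase-activating subunit of centralspindlin, which bundles the midzone microtubules and recruits Ect2, the exchange factor that switches on RhoA for ring assembly. Racgap1 has a CDS of 1926 bases and a 3' UTR of 1181 bases (ENSMUSG00000023015.14; chromosome 15, 99620496 to 99651656). Its total was 3779, 5492 and 5170 CPM with exon 5, from 2646, 3849 and 5524 counts, and 4923, 5642 and 5254 CPM without, from 2679, 4798 and 7510 counts. In the inputs it was 937, 621 and 352 CPM, from 156, 114 and 50 counts. The isoform groups overlapped and both were far above the inputs, where 28% of all genes had every isoform library above every input. The log2 fold change over input was 2.92 (SE 0.39) with exon 5 and 3.05 (SE 0.39) without, and it stayed past the threshold in all 16 alternative settings of each, between 2.15 and 3.54. Between the isoforms it was −0.13 (SE 0.36, 95% interval −0.90 to 0.63, adjusted p = 1.00 by edgeR), the narrowest interval of the 7 genes, and 0.0086 without replicate 1 with exon 5.

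Per kb of CDS, Racgap1 had 1421, 2103 and 1953 CPM with exon 5, 1810, 2141 and 2120 CPM without, and 384, 232 and 117 CPM in the inputs. It ranked 1 of 6376 genes in 5 of the 6 isoform libraries and 2 in replicate 3 without exon 5, and 45, 96 and 242 in the inputs. The median gene had 25.2 CPM per kb with exon 5 and 26.2 without, on the means over libraries. Its 3' UTR held 882, 1220 and 1193 CPM per kb with exon 5, 1217, 1285 and 991 without, and 168, 148 and 107 in the inputs. By this 3' UTR density it ranked 4 to 8 of 4984 genes in the isoform libraries. In the CDS and the 3' UTR alike the isoform libraries lay above the inputs and the isoform groups overlapped. How many single parts did so over all genes is not given here, and for gene totals it was 28%. Both isoforms together, the log2 fold changes over input were 2.85 (SE 0.46) and 3.68 (SE 0.62), both past the threshold. Each part was scaled by its own library sizes, so these values do not rank the CDS against the 3' UTR. Of all CDS 19% were called and of all 3' UTRs 15.9%, with medians of 1.54 and 1.34.

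The CDS held 73.0% ± 0.69 of the Racgap1 counts with exon 5, 73.9% ± 3.52 without and 71.6% ± 7.43 in the inputs (SD, n = 3 each), against 62.0% by length. The 3 groups overlapped, and single libraries ran from 64.0% (input 3) to 78.8% (input 1). The CDS changed relative to the 3' UTR by −0.035 against input on the log2 scale (adjusted p = 0.996 by diffSpliceDGE) and by −0.07 between the isoforms (adjusted p = 1.00). Racgap1 was thus counted along both parts in proportions that differed by less than the spread between inputs. In the authors' deposited table its log2 fold change between the isoforms was −0.11 in the CDS and −0.08 in the 3' UTR, class BOTH for each.

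**Figure D2:**
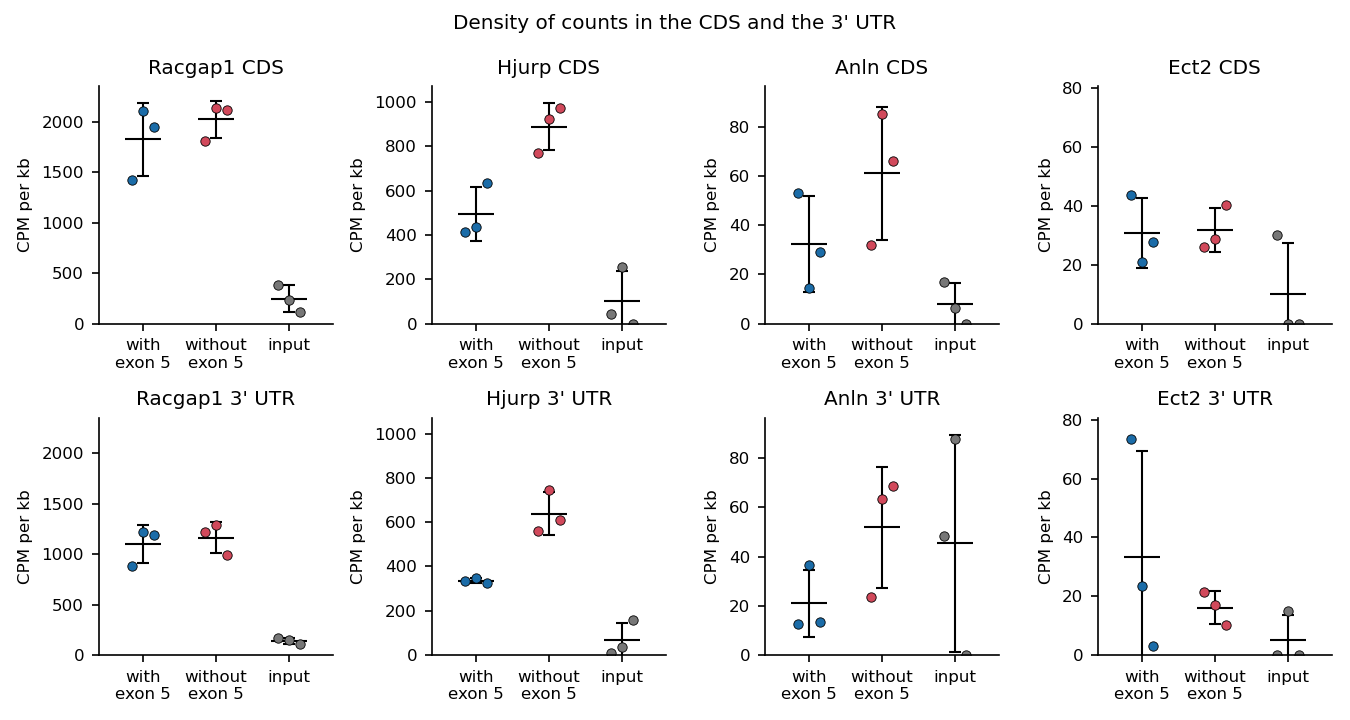
CPM per kb of CDS (top) and 3' UTR (bottom) for 4 genes in each library, with a linear axis from 0 shared by the 2 parts of a gene and bars for mean ± SD (n = 3 libraries). Racgap1 is at 1421 to 2141 CPM per kb of CDS in the isoform libraries, and the Hjurp libraries without exon 5 lie above those with it in both parts.

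Ect2 was sparse. It has a CDS of 2806 bases and a 3' UTR of 1458 bases (ENSMUSG00000027699.19; chromosome 3, 27097222 to 27154253). Its total was 230, 92.7 and 82.4 CPM with exon 5, 105, 106 and 128 CPM without, and 84.1, 21.8 and 0 CPM in the inputs, the last from 14, 4 and 0 counts. Replicate 1 with exon 5 was the highest library and input 1 lay within the range of the isoform with exon 5. The log2 fold changes over input, 1.92 (SE 1.16) and 1.66 (SE 1.16), did not pass the threshold. The isoforms differed by 0.26 (SE 1.08, 95% interval −2.05 to 2.56, adjusted p = 1.00 by edgeR), and by −0.37 without replicate 1 with exon 5. Its level was thus well below that of its partner Racgap1: 30.8 ± 11.8 CPM per kb of CDS with exon 5 and 31.8 ± 7.53 without, near the median gene.

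Both isoforms together, the log2 fold change over input was 1.58 (SE 1.25) for the Ect2 CDS and 2.74 (SE 1.53) for its 3' UTR, neither past the threshold. Each rested on 1 input, since the CDS had 14, 0 and 0 input counts and the 3' UTR 0, 4 and 0. Without input 1 the CDS value was 8.95 and without input 2 the 3' UTR value was 7.59, both then fitted against inputs at 0 and past the threshold.

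Anln encodes anillin, the scaffold that ties actin, myosin and septins of the contractile ring to RhoA and to centralspindlin. It has a CDS of 3522 bases and a 3' UTR of 1242 bases (ENSMUSG00000036777.8; chromosome 9, 22331214 to 22389211). Its total was 203, 97.0 and 120 CPM with exon 5, from 142, 68 and 128 counts, and 142, 379 and 318 CPM without, from 77, 322 and 454 counts. In the inputs it was 120, 131 and 0 CPM from 20, 24 and 0 counts. The isoform groups overlapped, since replicate 1 with exon 5 lay above replicate 1 without it, and those with exon 5 overlapped the inputs. The log2 fold changes over input were 0.73 (SE 1.07) and 1.73 (SE 1.09), neither past the threshold. The difference between the isoforms, −0.998 (SE 1.05, 95% interval −3.24 to 1.24, adjusted p = 1.00 by edgeR), was the largest in size of the 7 genes and lay within the spread of the libraries.

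By part, Anln differed between the isoforms by −0.88 (SE 1.07) in the CDS and −1.52 (SE 1.28) in the 3' UTR, with adjusted p of 1.00 and 0.999 by edgeR. The authors' deposited table gave −0.87 and −1.35, with the class BOTH for the CDS and mEX5 for the 3' UTR. How many of all genes carried an isoform-specific class is not given here. The Ect2 3' UTR, at 1.05 in the deposited table, carried BOTH. By its label the class rests on size and direction of change, so it is not comparable to an adjusted p. The CDS held 92.3%, 52.9% and 85.9% of Anln counts with exon 5, 79.2%, 79.2% and 73.1% without, and 50.0% (10 of 20 counts) and 16.7% (4 of 24) in inputs 1 and 2, against 73.9% by length. Both inputs with counts lay below all isoform libraries in this share. Both isoforms together, the log2 fold change over input was 2.39 (SE 1.09) for the CDS and 0.21 (SE 1.13) for the 3' UTR, neither past the threshold, and the latter was −0.27 when scaled by library size alone. The CDS changed relative to the 3' UTR by 3.01, against a median of 0.71 over all genes (adjusted p = 0.627 for Anln by diffSpliceDGE), which is no call. Between the isoforms this relative change was 0.38 (adjusted p = 1.00).

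Mki67 encodes the proliferation marker Ki-67, which coats mitotic chromosomes and keeps them apart. It has a CDS of 9531 bases, the longest of the 7, and no 3' UTR length in the files (ENSMUSG00000031004.8; chromosome 7, 135689784 to 135716450). Its total was 934, 1745 and 2227 CPM with exon 5 and 1509, 2181 and 2167 CPM without. The inputs had 372, 1139 and 1698 CPM from 62, 209 and 241 counts, with a mean of 1070 ± 665 CPM (SD, n = 3). The inputs overlapped both isoform groups, which overlapped each other. The log2 fold changes over input were 0.61 (SE 0.53) and 0.87 (SE 0.53), not past the threshold and below the median gene, and turned to −0.28 and −0.029 when scaled by library size alone. In the CDS, both isoforms together, it was 0.59 (SE 0.51), and −0.26 with RLE size factors. Between the isoforms it was −0.26 (SE 0.52, 95% interval −1.37 to 0.86, adjusted p = 1.00 by edgeR).

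**Figure D3:**
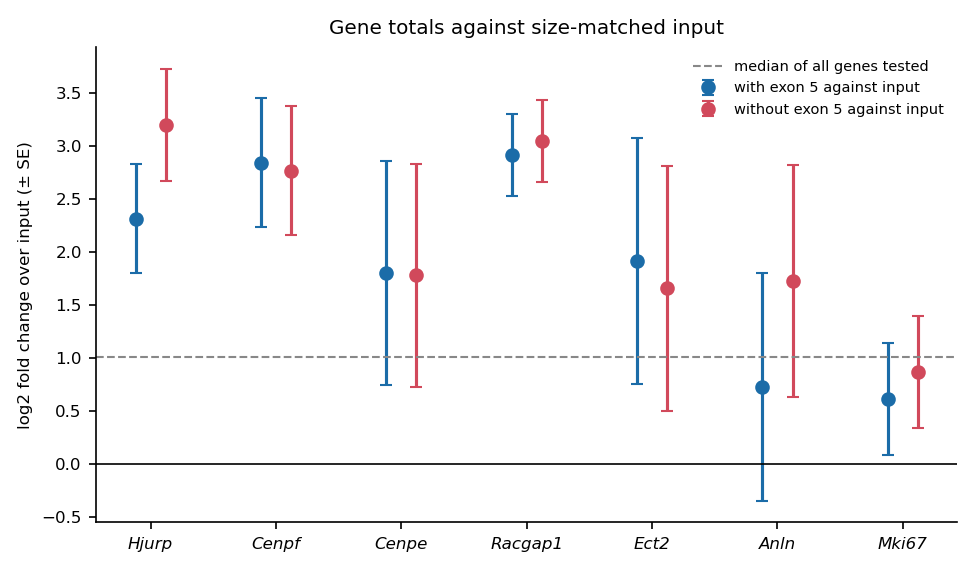
Log2 fold change of gene totals over input with each isoform, as fitted values ± SE from 3 isoform and 3 input libraries; the dashed line is the median over all 8342 genes tested, both isoforms together (1.01). Racgap1, Hjurp and Cenpf lie highest, while Mki67 lies below the median with both isoforms and Anln with exon 5 only.

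Levels can be compared between the genes only per length. By CDS density with exon 5 the order was Racgap1 (1826 ± 358 CPM per kb), Hjurp (495 ± 121), Mki67 (172 ± 68.6), Cenpf (120 ± 37.5), Cenpe (33.1 ± 3.89), Anln (32.3 ± 19.5) and Ect2 (30.8 ± 11.8). Without exon 5 it was Racgap1 (2024 ± 185), Hjurp (889 ± 107), Mki67 (205 ± 40.3), Cenpf (112 ± 20.7), Anln (61.0 ± 27.0), Cenpe (32.5 ± 5.61) and Ect2 (31.8 ± 7.53). Racgap1 was above Hjurp, and Hjurp above Mki67, in all libraries of both groups. Mki67 and Cenpf overlapped with exon 5 (98.0 to 234 against 78.5 to 152 CPM per kb) but not without (158 to 229 against 88.3 to 128). Cenpe, Anln and Ect2 overlapped with each other in both groups, between 14.6 and 85.1 CPM per kb.

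In the inputs the order by mean was Racgap1 (244 ± 134 CPM per kb), Mki67 (112 ± 69.8), Hjurp (99.5 ± 138), Cenpf (16.5 ± 9.97), Ect2 (9.99 ± 17.3), Cenpe (9.44 ± 8.62) and Anln (7.75 ± 8.63). Racgap1, Mki67 and Hjurp overlapped there. Mki67 ranked 208 of 6376 genes in the inputs and 146 and 109 with and without exon 5. Cenpf moved from rank 2345 in the inputs to 309 and 366. The ranks of Hjurp by mean were 252 in the inputs and 11 and 6 in the isoforms. By library it ranked 11 to 18 with exon 5 and 6 to 8 without, but 989 in input 1 and 77 in input 2, and it had 0 CDS counts in input 3.

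The median fold change over input was larger in genes with a long CDS, a class that holds Cenpf, Cenpe and Mki67, whose CDS are all over 5000 bases. Among the 516 genes tested with so long a CDS, the median log2 fold change over input was 2.28 with exon 5 and 2.20 without, and 32.2% and 30.4% were called. Of the 3 long genes here, Cenpf lay above that median (2.84 and 2.77), and Cenpe (1.81 and 1.78) and Mki67 (0.61 and 0.87) below it. Racgap1 and Hjurp lie in the shorter class, whose medians were 0.91 and 0.92. Genes with 0 counts in all inputs (1221 of 8342) have fitted values that depend on the prior count. With those genes at their bound of 3 counts per input library, the medians were 0.70 and 0.72 over all genes and 2.15 and 2.05 over long ones.

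**Figure D4:**
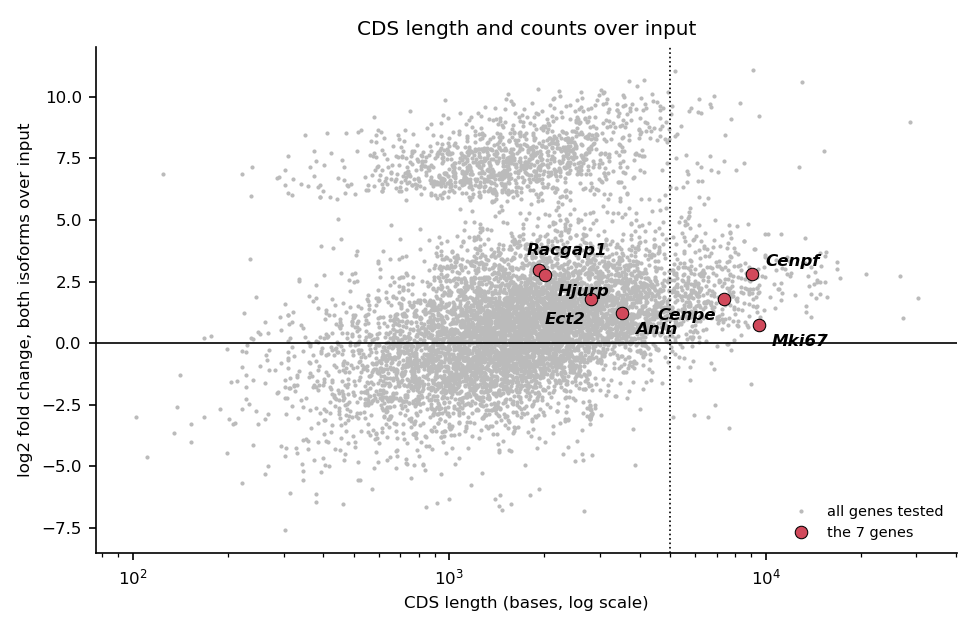
Log2 fold change of the gene total over input (both isoforms together) against CDS length (log axis) for the 8342 genes tested, with the 7 genes marked and a dotted line at 5000 bases. Of all points, 1221 are genes with 0 counts in all inputs, whose fitted values are not bounds. Racgap1 lies at 2.98, Hjurp at 2.76 and Mki67 at 0.74.

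Of 59 other listed genes of the centromere and kinetochore, 35 were tested, and 4 were higher than input with exon 5 and 3 without, with 0 lower, where 8.31% and 8.12% of all genes tested were called higher. Their median log2 fold changes were 0.83 and 1.11, against 1.03 and 1.03 over all genes. Mad1l1, a spindle checkpoint protein, had 183 and 175 counts in the 2 isoform groups and 0 in the inputs, at least 3.86-fold and 3.31-fold higher against a floor of 3 counts per input library. Clasp2, a microtubule plus-end protein of the kinetochore, rose by 2.56 (SE 0.59) and 2.53 (SE 0.59), with adjusted p of 0.0208 and 0.0220 by edgeR. Zwilch, of the complex that brings dynein to kinetochores, rose with exon 5 (4.68, SE 1.29, adjusted p = 0.0374 by edgeR) from 4 input counts, and stood at 4.23 without it (adjusted p = 0.0512 by edgeR). Ckap5, a microtubule polymerase, rose by 2.42 and 2.46 (SE 0.66 for the latter), with adjusted p of 0.0351 and 0.0342 by edgeR. Cenpa, the histone that Hjurp deposits, stood at −0.47 and 0.13 with adjusted p of 0.839 and 0.959 by edgeR, and was named after its values were seen.

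Of 36 other listed genes of cytokinesis and the central spindle, 32 were tested, and 0 were called higher with either isoform, beside the same 8.31% and 8.12% of all genes. Rhoa, the GTPase that Ect2 activates, was lower with exon 5 (log2 fold change −6.30, SE 1.68, adjusted p = 0.0340 by edgeR), from 7 counts against 111 in the inputs. Without exon 5 it stood at −3.84 (adjusted p = 0.105 by edgeR) from 38 counts. The medians of the list were 1.07 and 1.17. Kif23, the kinesin partner of Racgap1 in centralspindlin, stood at 2.20 and 2.05 with adjusted p of 0.290 and 0.330 by edgeR, and was named after its values were seen.

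Of 56 other listed genes of mitosis and proliferation, 42 were tested, with 0 higher with exon 5, 1 without and 0 lower (8.31% and 8.12% of all genes were called higher), and medians of 1.40 and 1.62 (1.22 and 1.44 with genes at 0 in the inputs at their bound). The 1 gene was Numa1, which organises spindle poles, at 3.22 (SE 0.94, adjusted p = 0.0468 by edgeR) without exon 5 and at 2.55 (adjusted p = 0.0841 by edgeR) with it. The named calls of these lists depended on the setting. Mad1l1, Clasp2, Zwilch, Ckap5 without exon 5, Rhoa with it and Numa1 without it kept their sign in every setting. Yet each was past the threshold in only 5 to 8 of 15 or 16. Leaving out any 1 library of the isoform compared ended each of these calls, for example at adjusted p of 0.0651 for Clasp2 and 0.121 for Rhoa by edgeR without replicate 1 with exon 5. Between the isoforms 0 genes of any of the 3 lists passed, with medians of −0.04, −0.18 and −0.22 against −0.03 over all genes.

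The genes whose levels over the 9 libraries were most like those of each member were found among 4399 other named genes of at least 50 CPM, by the root mean square difference of log2 CPM centred per gene. Racgap1 was closest to Col6a5 (0.17), Prune2 (0.27) and Avl9 (0.30), where the median gene differed by 1.38. Hjurp was closest to Prrc2a (0.36), Gm49388 (0.40) and Zbed6 (0.41), with a median of 1.47. Cenpf was closest to Maml3 (0.26), Kmt2d (0.28) and Fbxl20 (0.32), and Cenpe to Gata2 (0.28), Kif15 (0.29) and Csnk1e (0.31). Ect2 was closest to Bms1 (0.26), Ncoa2 (0.34) and Eif2ak1 (0.34), and Anln to Cep170b (0.32), Dazap1 (0.44) and Usp47 (0.44). Mki67 was closest to Ptprg (0.30), Tro (0.32) and Col4a2 (0.37).

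Among the 7 themselves the closest pair was Cenpf and Hjurp (0.46), followed by Cenpf and Racgap1 (0.75), and the farthest was Anln and Cenpe (2.46). Anln had 0 counts in input 3 and Cenpe 0 in input 1, and these sparse inputs enter that distance. Racgap1 and its partner Ect2 differed by 0.99. These likenesses include the shared step from input to isoform libraries and are a description over the same 9 libraries.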

How the data were processed

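Values are raw counts that the authors deposited for each gene part (5' UTR, CDS, 3' UTR) and for the gene as a whole; totals matched the parts with 0 exceptions. Part lengths in bases and log2 fold changes between the isoforms were also deposited by the authors. The submitters' processing notes name mm10, TopHat2 and DESeq2. Not given in the sources used here are the counting tool, the use of strand and any collapse of duplicates. Exact intervals of shares, and floors, therefore cover counting error only. In all, 27 columns of per-sample values were not used. None of the 7 genes has a 5' UTR length, and 5 have a 3' UTR length. Coordinates are from RefSeq (GRCm38.p6).

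Gene totals and parts were tested with edgeR 4.0.16 in R 4.3.3 (quasi-likelihood, robust, TMM, filterByExpr with minimum count 10 and total 15, 9 libraries in 1 fit), adjusted by Benjamini-Hochberg over all features, threshold 0.05. Part fits use the part's own library sizes. CDS use relative to the 3' UTR was tested with diffSpliceDGE, which gives a p to each part of a gene. The p and adjusted p given are the smaller of those of the CDS and the 3' UTR. Adjustment was over all parts, and a gene passed where either part did. The log2 value is the CDS coefficient minus that of the 3' UTR in that fit. CPM were scaled by the TMM library sizes of gene totals. DESeq2 1.42.0, other scalings, a replicate block, no filter and leaving out each library were alternatives. Part-level isoform fits were also computed for Cenpf, Cenpe, Ect2 and Mki67 and are not reported.

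The 7 genes, the 3 pathway lists and the tests were chosen with earlier results of these data known. Named beside the 7 were, per list and comparison of gene totals, the 3 highest and 3 lowest fold changes past the threshold, and for likeness the 3 nearest genes. Libraries of a group were harvested on separate days, per the labels; a replicate number was not used to pair libraries.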

Additional observations from a re-analysis of the deposited data

How the results depend on the processing

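Racgap1 stayed past the threshold against input in all 16 settings with each isoform. Hjurp did in 11 with exon 5 and 15 without, and Cenpf in 13 and 12. Their log2 fold changes stayed positive throughout. The cause of each change below was not tested. The library block, the block by column header numbers and the part fits with only the groups compared were chosen after seeing the data. For single genes, but not for the counts of genes called, so were the fits of totals with only the groups compared and those with library sizes of gene totals.

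Genes called in gene totals with exon 5, without and between isoforms were 765, 726 and 0. They were 447 and 358 with RLE size factors, 402 and 306 by library size alone (274 higher and 128 lower, 222 and 84), 1211, 1184 and 4 with no filter, 1655, 1561 and 1 with DESeq2, and 29, 18 and 2 with only the groups compared. Leaving out 1 library gave 58 to 2411, 37 to 2354 and 0 to 0, with the highest of each without input 2. The median of all genes moved from 1.03 to 0.63 and 0.59 with RLE, and to 0.39 and 0.37 by library size alone. For the CDS, both isoforms against input, 1210 became 298 with RLE, 335 by library size alone and 226 to 2407 with 1 library left out, and between isoforms DESeq2 called 1. For the 3' UTR, 792 became 1617 with DESeq2, 466 with library sizes of gene totals and 217 to 1534 with 1 library left out, and between isoforms 2 were called with no filter. For CDS use relative to the 3' UTR, 8 became 13 with no filter, 71 with the library block and 0 to 30 with 1 library left out.

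Deviations of same-numbered isoform libraries correlated at −0.001 to 0.039, and those of differently numbered ones at −0.046 to 0.017. All these values were small, and whether replicate numbers pair the libraries was not settled by them. With the replicate block, calls were 273 and 284 in totals, 506 in the CDS, 551 in the 3' UTR and 0 in relative use. With the block by header numbers they were 296, 292, 503 and 514. The Hjurp CDS over input was 3.27 and 3.26 with these blocks, past the threshold.

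The signs of some values turned. Between isoforms, Cenpe in total gave −0.011 with no filter and −0.0063 with the header block, and −0.090 to 0.17 with 1 library left out; Ect2 gave −0.093 with the replicate block and −0.37 to 0.51. Leaving out 1 library gave −0.13 to 0.30 for Cenpf, −0.25 to 0.0086 for Racgap1 (CDS −0.26 to 0.0044) and −0.55 to 0.017 for Mki67. Against input, Mki67 gave −0.28 and −0.029 by library size alone, and in the CDS −0.26 with RLE, −0.71 by library size alone and −0.26 with DESeq2. The Anln 3' UTR gave −0.27 by library size alone, −0.47 with library sizes of gene totals and −0.24 to 1.43 with 1 library left out. CDS use relative to the 3' UTR against input gave 0.52 (library size alone) and 0.026 (replicate block) for Hjurp and −2.24 to 2.38 with 1 library left out, and 0.017 (replicate block), 0.10 (library block) and −0.18 to 0.29 for Racgap1. Between isoforms it gave −0.16 to 0.19 for Hjurp, −0.17 to 0.073 for Racgap1 and −0.42 to 1.41 for Anln.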
